A study of Sus scrofa with 15 samples.

Results

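Implantation A is the group of 3 pig (Sus scrofa) penile corpus cavernosum samples that the labels set apart from a normal, a defect, an implantation B and an ECs+ implantation group, each also of 3 samples. Its libraries were compared here with the 3 normal ones, so 6 of the 15 libraries of the study carry the results, and they were chosen by group label alone. The study's design names this pair among its comparisons, and the question taken here is what differs between the tissue given an implant and normal tissue. Polyadenylated RNA was sequenced after library preparation with the TruSeq RNA Library Prep Kit v2. The labels give the tissue and the group name for both groups and no agent, allele, strain, age or time. They do not spell out what the implant of group A was, how it differs from that of group B, or whether each library of a group is of its own animal. The p-values therefore measure only how the libraries vary, and that variation may be technical.

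The corpus cavernosum is the erectile tissue of the penis, a sponge of blood sinusoids lined by endothelium and set in trabeculae of smooth muscle, collagen and elastic fibres. Nitric oxide from nerves and endothelium raises cyclic GMP in the smooth muscle, which relaxes and lets the sinusoids fill, and the phosphodiesterase PDE5A ends that signal. Noradrenaline and endothelin, acting through calcium and the RhoA kinases, keep the muscle contracted at rest. Repair of connective tissue is known for activated fibroblasts that lay down type I and type III collagen, for macrophages and proteinases that remodel that matrix, and for vessels that grow back into it.

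Levels of single genes are given as CPM, gene counts scaled to library size and by the TMM method of edgeR over the 6 libraries, and differences as log2 fold changes of implantation A over normal with their SE. A gene is called higher or lower at an adjusted p under 0.05 by edgeR's quasi-likelihood test with Benjamini-Hochberg adjustment over all 17728 genes tested. Numbers in parentheses after a gene symbol are log2 fold changes of called genes unless said otherwise. Summed levels of gene lists are CPM without TMM factors, and coordinates are those of the Sscrofa11.1 build. Gene symbols are those of the deposited table, which uses CTGF, CYR61, WISP1, GUCY1A3 and GUCY1B3 for CCN2, CCN1, CCN4, GUCY1A1 and GUCY1B1.

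Total counts were 18699034 to 19644793 in implantation A and 17375064 to 17580898 in normal. Log2 CPM correlated at 0.9934 to 0.9935 within implantation A, at 0.9906 to 0.9931 within normal and at 0.9487 to 0.9539 between the groups. The spread between libraries that edgeR terms the biological coefficient of variation was 2.34% in implantation A and 6.19% in normal. It may be technical here. The ribosomal RNA gene RN18S took 0.144% to 0.228% of counts in implantation A and 0.494% to 0.566% in normal, and the 10 most abundant genes took 12.9% and 8.97% to 9.23%. Fold changes also followed gene length. Over 10 bins of increasing length the median log2 fold change was -0.12 in the bin of shortest genes and 0.19 in that of the longest, with 24.2% and 51.8% of genes called higher. The part of RN18S and of length in the differences between the groups was not tested, beyond a fit with the length trend removed chosen after seeing the data. Among the lists, its values are given below for the basement membrane, endothelial and ribosomal protein ones only. In that fit 26 of the 40 gene lists had more members higher than lower, and 29 in the main analysis. The number was also 26 with library size as the only scaling, so this shift cannot tell length from scaling.

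Of the 17728 genes tested, 11573 were called, which is 65.3%, with 5956 (33.6%) higher and 5617 (31.7%) lower in implantation A. Which direction held more calls turned with the scaling, as given in the section on processing. The median log2 fold change of all tested genes was -0.01. Most differences were small. At least a 2-fold difference was called for 2307 genes (13.0%), 1359 higher (7.67%) and 948 lower (5.35%). On the log2(TPM + 1) scale with limma, which shrinks the differences of low genes, that number was 1305. At least 4-fold differences were called for 304 genes higher and 114 lower, and at least 16-fold differences for 37 and 8. The libraries of the 2 groups did not overlap for 35.1% of tested genes on the higher side and 33.6% on the lower side. With so large a background, counts of called list members below are read against these shares, and the size of the differences is given beside them.

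Of the genes taken to mark main cell types of the tissue, ACTA2, COL1A1 and CLDN5 were present in both groups, while MMP12 was close to undetected in normal. ACTA2, the actin of smooth muscle (chromosome 14, 100868145 to 100886732), stood at 1708, 1708 and 1681 CPM in implantation A and 794, 781 and 743 CPM in normal, a log2 fold change of 1.14 with an SE of 0.0396 (adjusted p = 3.69e-19). COL1A1, the alpha 1 chain of type I collagen made by fibroblasts (chromosome 12, 26379087 to 26397180), stood at 45119.6, 45111 and 45418 CPM in implantation A and 9118, 8713 and 8248 CPM in normal, a log2 fold change of 2.38 with an SE of 0.0375 (adjusted p = 2.61e-26). CLDN5, a tight junction protein of endothelium (chromosome 14, 51161490 to 51162382), went the other way. Its level was 98, 95.8 and 97 CPM in implantation A and 413, 395 and 379 CPM in normal, a log2 fold change of -2.03 with an SE of 0.0459 (adjusted p = 2.54e-23). MMP12, the elastase of macrophages (chromosome 9, 33473625 to 33483630), stood at 28.1, 26.9 and 26.1 CPM in implantation A and 0.113, 0.167 and 0.164 CPM in normal, a log2 fold change of 7.44 with an SE of 0.47 (adjusted p = 3.02e-22). Its normal level came from 2, 3 and 3 counts, and the pooled counts put implantation A 173-fold higher with a 95% exact interval of 87.7 to 402, which covers counting error only. For all 4 genes the 3 implantation A libraries lay on one side of the 3 normal libraries, as they did for 68.7% of all tested genes.

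**Figure D1:**
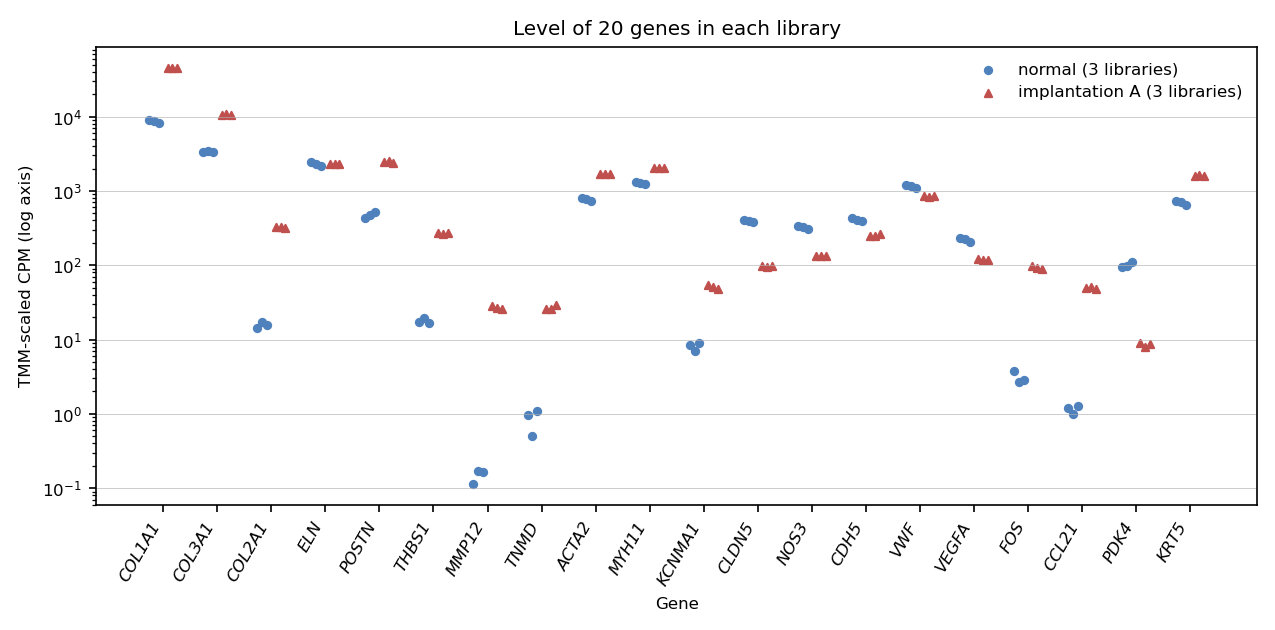
Level of 20 genes in each of the 6 libraries, as TMM-scaled CPM on a log axis, with implantation A and normal as separate points. COL1A1, COL2A1, MMP12 and FOS sit higher in every implantation A library than in any normal library, while CLDN5, NOS3 and PDK4 sit lower.

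The collagen matrix held the largest difference in amount of transcript. Of the 11 fibrillar collagen chains, 10 were higher and 1 lower in implantation A, with a median log2 fold change of 1.39, and their summed level was 72820 to 72990 CPM in implantation A and 17430 to 17640 CPM in normal. COL1A1 alone took 4.40% to 4.42% of all counts in implantation A and 0.866% to 0.915% in normal. COL1A2, the partner chain of type I collagen (chromosome 9, 74174484 to 74210407), stood at 15374, 15445 and 15213 CPM in implantation A and 3449, 3504 and 3477 CPM in normal, a log2 fold change of 2.14 with an SE of 0.0352 (adjusted p = 4.95e-26). COL3A1, the type III chain of pliable and young connective tissue (chromosome 15, 93556914 to 93595678), stood at 10672, 10708 and 10669 CPM in implantation A and 3364, 3395 and 3346 CPM in normal, a log2 fold change of 1.67 with an SE of 0.0354 (adjusted p = 8.03e-24). On the TPM scale, which allows levels of different genes to be set side by side, COL1A1 averaged 13100 TPM and COL3A1 3878 TPM in implantation A, against 2384 and 1151 TPM in normal. The balance between both collagens also lay apart in these libraries. The ratio of COL1A1 to COL3A1 counts was 4.23 ± 0.0223 in implantation A and 2.58 ± 0.123 in normal (SD, n = 3), with no overlap between the groups, and an exact permutation test gave p = 0.1, the smallest that 3 against 3 libraries allow. The ratios given here and below were chosen after the values were seen.

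The minor fibrillar chains, which set fibril diameter, were higher with the major ones. COL5A1 (1.23), COL5A2 (0.73), COL5A3 (0.75), COL11A1 (2.42), COL11A2 (1.28) and COL24A1 (1.39) were all called, and COL27A1 (-0.22) was the chain called lower. COL2A1, the collagen of cartilage (chromosome 5, 78350131 to 78380893), stood at 324, 328 and 319 CPM in implantation A and 14.2, 17.4 and 15.6 CPM in normal, a log2 fold change of 4.36 with an SE of 0.0652 (adjusted p = 1.37e-27). It was still a minor collagen, at 106, 108 and 104 TPM in implantation A and 4.31, 5.35 and 4.85 TPM in normal. Counts of COL2A1 were 0.00717 of those of COL1A1 in implantation A and 0.00182 in normal, so its rise exceeded that of COL1A1 by 3.95 times.

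Of 17 tested fibril-associated collagens and small proteoglycans, out of 19, 16 were higher and 1 lower in implantation A, with a median log2 fold change of 1.05. COL12A1 (2.65) and COL14A1 (2.02), which sit on the surface of collagen fibrils, and COL6A3 (1.80), a chain of the beaded type VI collagen around cells, had the smallest p-values. The fibril-binding proteoglycans decorin (DCN, 1.49), lumican (LUM, 1.73), fibromodulin (FMOD, 1.41) and asporin (ASPN, 2.54) were higher, and biglycan less so (BGN, 0.46). COL6A6 (-2.45) was the member called lower, from a mean of 12.5 CPM in normal to 2.27 CPM. The summed level of the list was 20030 to 20220 CPM in implantation A and 9591 to 9951 CPM in normal.

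Enzymes that modify and crosslink collagen were also higher, by less than their substrates. Of 23 such genes, 18 were higher and 2 lower in implantation A, with a median log2 fold change of 0.40. ADAMTS2, which removes the amino-terminal propeptide of procollagen, had a log2 fold change of 1.71, and LOX, the lysyl oxidase that starts the crosslinks, one of 1.60. The level of LOX was 107, 111 and 111 CPM in implantation A and 37.7, 34.6 and 36.3 CPM in normal. P4HA3 (0.97) and P4HA1 (0.83), subunits of prolyl hydroxylase, PLOD2 (1.05), a lysyl hydroxylase, and SERPINH1 (0.54), the collagen chaperone, were higher, while P3H2 (-0.44) and ADAMTS14 (-1.01) were lower. PLOD3, LOXL4 and BMP1 did not pass the test.

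Elastic fibre genes moved less evenly. ELN, which encodes elastin, the rubber-like core of these fibres (chromosome 3, 11214194 to 11245891), stood at 2307, 2309 and 2326 CPM in implantation A and 2462, 2284 and 2155 CPM in normal, a log2 fold change of 0.01 with an SE of 0.0428 (adjusted p = 0.869) that did not pass. The direction of ELN turned with the scaling or the libraries used, but no such setting took it past -0.07. The ratio of COL1A1 to ELN counts was 19.5 ± 0.0163 in implantation A and 3.78 ± 0.068 in normal (SD, n = 3, exact permutation p = 0.1). Of the 16 elastic fibre genes, 10 were higher and 0 lower in implantation A, with a median log2 fold change of 0.40. The microfibril genes FBN1 (1.12, fibrillin), MFAP2 (1.40) and MFAP5 (1.43) and the fibulin EFEMP1 (1.80) were higher. EFEMP2, MFAP4, LTBP3, LTBP4 and FBLN1 did not pass, with log2 fold changes of -0.08 to 0.09.

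In the basement membrane list of 22 genes, 14 were higher and 5 lower in implantation A, with a median log2 fold change of 0.37. The type IV collagen chains COL4A1 (0.99) and COL4A2 (0.61) and the laminin chains LAMA2 (1.20), LAMB1 (0.61) and LAMC1 (0.52) were higher, as was COL15A1 (0.73). LAMA5 (-0.75), a laminin chain of mature vessels and epithelia, LAMB2 (-0.13), AGRN (-0.27) and SPARCL1 (-0.19) were lower. With the trend of fold change on gene length removed, the counts were 11 higher and 8 lower with a median of 0.17. This list thus leaned less to one side than the fibrillar collagens did.

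Genes of activated fibroblasts and myofibroblasts, the contractile matrix-making cells of repair, were higher as a group. Of the 21 members, 19 were higher and 1 lower in implantation A, with a median log2 fold change of 1.21, and their summed level was 20110 to 20400 CPM in implantation A and 9143 to 9421 CPM in normal. THBS1, a matrix protein that activates latent TGF-beta (chromosome 1, 131728781 to 131746098), stood at 275, 266 and 269 CPM in implantation A and 17.5, 19.3 and 16.4 CPM in normal, a log2 fold change of 3.93 with an SE of 0.0623 (adjusted p = 4.53e-27). CTGF, a matricellular growth factor of scars (chromosome 1, 31674398 to 31677697), stood at 342, 331 and 339.7 CPM in implantation A and 39.3, 37 and 38.9 CPM in normal, a log2 fold change of 3.14 with an SE of 0.0501 (adjusted p = 1.56e-26). For both genes every implantation A library lay above every normal library, as for 35.1% of all tested genes. POSTN, periostin (chromosome 11, 13225183 to 13258973), was at 2459, 2502 and 2400.4 CPM in implantation A and 427, 473 and 516 CPM in normal (2.38), and FN1, fibronectin, at 2144, 2180.0 and 2149 CPM in implantation A and 1065, 1050.1 and 1000.3 CPM in normal (1.05). THBS2 (2.85), CTHRC1 (3.05), SFRP4 (2.85) and TNC (2.22), an anti-adhesive matrix protein of wounds, were also higher. SPP1, osteopontin, was the member called lower (-1.50), and INHBA did not pass.

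Markers of resting fibroblasts were called in both directions, as were all tested genes (33.6% higher, 31.7% lower). Of 15 tested members, out of 16, 7 were higher and 6 lower in implantation A, with a median log2 fold change of 0.65. Their summed level was nevertheless lower, at 19570 to 20000 CPM in implantation A and 39460 to 41760 CPM in normal, because GSN makes up most of it. GSN encodes gelsolin, which severs actin filaments (chromosome 1, 261295711 to 261372848), and stood at 17832, 17392 and 17544 CPM in implantation A and 38247, 36600.3 and 34333 CPM in normal, a log2 fold change of -1.05 with an SE of 0.0382 (adjusted p = 9.74e-19). CLEC3B (-1.0), CFD (-1.13), the adipose and stromal protease factor D, APOD (-0.80) and OSR1 (-0.64) were lower with it. PI16 (1.30) and DPT (2.27), which mark fibroblasts of the adventitia, were higher, together with PDGFRA (0.82), a receptor of fibroblasts.

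The TGF-beta pathway drives matrix production by fibroblasts, through receptor kinases and SMAD factors. Of 21 genes of this pathway, 16 were higher and 4 lower in implantation A, with a median log2 fold change of 0.34. Among the ligands TGFB1 was lower, at 95, 99.8 and 99.6 CPM in implantation A and 145, 133 and 128 CPM in normal (-0.47), while TGFB2 (1.39) and TGFB3 (1.25) were higher. The receptor gene TGFBR1 was higher (0.87) and TGFBR2 lower (-0.22). Among known targets, TGFBI, a secreted matrix protein (chromosome 2, 138191793 to 138225373), stood at 161, 156 and 160.4 CPM in implantation A and 49.5, 45.7 and 44.9 CPM in normal, a log2 fold change of 1.77 with an SE of 0.0529 (adjusted p = 9.23e-21). SKIL (1.41) and PMEPA1 (0.82) were higher too, and SMAD6 (-0.65), an inhibitory SMAD, was lower.

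Matrix metalloproteinases degrade collagen and other matrix, and the TIMPs inhibit them. Of 21 tested members, out of 25, 14 were higher and 5 lower in implantation A, with a median log2 fold change of 0.81. MMP12 had the largest log2 fold change of the genes named by rule. MMP1, an interstitial collagenase (chromosome 9, 33411738 to 33420205), stood at 36, 34.5 and 35 CPM in implantation A and 3.63, 4.24 and 4 CPM in normal, a log2 fold change of 3.15 with an SE of 0.11 (adjusted p = 2.09e-20), and MMP9, a gelatinase (chromosome 17, 48179690 to 48186782), at 14.5, 14.6 and 13.1 CPM in implantation A and 0.85, 0.502 and 1.26 CPM in normal, a log2 fold change of 4.0 with an SE of 0.239 (adjusted p = 1.02e-16). MMP3 (1.88) was higher from a mean of 6.12 to 22.5 CPM. In CPM these inducible enzymes remained scarce beside MMP2, the constitutive gelatinase, which stood at 2279, 2273 and 2293 CPM in implantation A and 1176, 1106 and 1037 CPM in normal (1.04). TIMP2, an inhibitor of MMP2 and also part of its activation, was higher by a like amount (0.96). The ratio of MMP2 to TIMP2 counts was 1.45 ± 0.0114 in implantation A and 1.37 ± 0.0493 in normal (SD, n = 3, exact permutation p = 0.1). TIMP1 (0.14) was slightly higher, TIMP3 did not pass, and MMP11 (-0.75), MMP23B (-0.68) and MMP19 (-0.18) were lower.

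Genes of tendon, cartilage and bone, tissues rich in type I or type II collagen, were mostly higher. Of 19 tested members, out of 21, 14 were higher and 3 lower in implantation A, with a median log2 fold change of 0.62. TNMD, tenomodulin of tendon cells (chromosome X, 82269323 to 82292083), stood at 26.1, 26.1 and 29.5 CPM in implantation A and 0.963, 0.502 and 1.1 CPM in normal, a log2 fold change of 4.98 with an SE of 0.23 (adjusted p = 2.30e-20). KERA, keratocan (chromosome 5, 91794317 to 91802362), stood at 162, 174 and 159 CPM in implantation A and 19.3, 22.1 and 23.3 CPM in normal, a log2 fold change of 2.93 with an SE of 0.0659 (adjusted p = 8.35e-24). MKX (2.26), a transcription factor of tendon, CHRDL1 (1.74), CILP (1.74) and RUNX2 (1.90), a factor of bone, were higher. The cartilage genes ACAN (0.59) and SOX9 (0.52) differed less, HAPLN1 did not pass, and CHAD (-0.96), FIBIN (-0.93) and BGLAP (-1.27) were lower.

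Transcripts of smooth muscle also exceeded the normal level, by less than collagen. Of the 25 contractile genes, 23 were higher and 2 lower in implantation A, with a median log2 fold change of 0.59, and their summed level was 13990 to 14110 CPM in implantation A and 9638 to 10020 CPM in normal. MYH11, the smooth muscle myosin heavy chain (chromosome 3, 7002667 to 7143093), stood at 2017, 2045 and 2065 CPM in implantation A and 1312, 1278 and 1242 CPM in normal, a log2 fold change of 0.68 with an SE of 0.0386 (adjusted p = 1.40e-14). DES, desmin of the muscle cytoskeleton, was at 255, 263 and 256 CPM in implantation A and 179, 176 and 161 CPM in normal (0.59). The smallest p-values went to SYNPO2 (1.93), an actin-bundling protein, MYLK (1.40), the kinase that starts contraction by phosphorylating myosin light chain, and ITGA8 (2.35), an integrin of smooth muscle and myofibroblasts. MYOCD, the coactivator that switches on contractile genes, stood at 13.2, 15.2 and 13.6 CPM in implantation A and 3.46, 3.13 and 4.33 CPM in normal (1.94). SMTN (-0.20), smoothelin of fully contractile cells, and PPP1R14A (-0.65), an inhibitor of myosin phosphatase, were lower. The list's members did not move in step. The ratio of ACTA2 to MYH11 counts was 0.832 ± 0.0167 in implantation A and 0.605 ± 0.00649 in normal (SD, n = 3, exact permutation p = 0.1), and ACTA2 is also made by myofibroblasts. In bulk tissue, fewer cells of a type and less RNA per cell cannot be told apart, and the same holds for more of either.

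Of 19 channel and calcium handling genes of smooth muscle, 14 were higher and 2 lower in implantation A, with a median log2 fold change of 0.72. KCNMA1, the pore of the large-conductance potassium channel that hyperpolarizes cavernous muscle (chromosome 14, 79345382 to 80106337), stood at 53.5, 50.4 and 48.3 CPM in implantation A and 8.44, 7.09 and 8.99 CPM in normal, a log2 fold change of 2.63 with an SE of 0.0914 (adjusted p = 6.38e-20). Its partner KCNMB1 was higher by less (0.81). ATP2A2, the calcium pump of the sarcoplasmic reticulum (0.90), its regulator PLN (1.05), the chloride channel ANO1 (0.90) and TRPC6 (1.60) were higher. CACNA1C, the calcium channel pore, differed little (0.37), and CACNA1H was lower (-0.25).

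Genes of the nitric oxide and cyclic nucleotide pathway were called in both directions. Of 24 tested members, out of 25, 15 were higher and 9 lower in implantation A, with a median log2 fold change of 0.41. All 3 nitric oxide synthase genes were lower. NOS3, the endothelial enzyme (chromosome 18, 6209218 to 6228912), stood at 132, 133 and 134 CPM in implantation A and 342, 327 and 309.7 CPM in normal, a log2 fold change of -1.30 with an SE of 0.046 (adjusted p = 5.15e-19). Its libraries did not overlap between the groups, as for 33.6% of all tested genes on the lower side. NOS1, the neuronal enzyme, was scarce, with a mean of 0.501 CPM in implantation A and 1.19 CPM in normal (-1.23), and NOS2 was also lower (-0.66). NPR1, the membrane guanylyl cyclase of natriuretic peptides, was lower (-1.28). In the soluble guanylyl cyclase that senses nitric oxide, GUCY1A3 stood at 59.5, 60.5 and 57.3 CPM in implantation A and 50.8, 48.4 and 54 CPM in normal (0.21, adjusted p = 0.00273), a call that was lost with library size as the only scaling (0.14, adjusted p = 0.0506). GUCY1B3 was at 0.38.

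Downstream of cyclic GMP, PRKG1, the kinase that relaxes the muscle (chromosome 14, 97558531 to 98793080), stood at 43, 44.5 and 42.9 CPM in implantation A and 15.6, 20.3 and 22.1 CPM in normal, a log2 fold change of 1.16 with an SE of 0.087 (adjusted p = 5.05e-12). PDE5A, the target of sildenafil (chromosome 8, 104270858 to 104420955), stood at 77.9, 75.7 and 72.6 CPM in implantation A and 39.4, 40.1 and 47.8 CPM in normal, a log2 fold change of 0.83 with an SE of 0.0654 (adjusted p = 1.21e-11). The ratio of PDE5A to PRKG1 counts was 1.74 ± 0.0674 in implantation A and 2.22 ± 0.278 in normal (SD, n = 3, exact permutation p = 0.1). The phosphodiesterase genes PDE3A, PDE1A, PDE1C, PDE4B and PDE4D were also higher, with log2 fold changes of 0.47 to 0.86. The adenylyl cyclases ADCY5 (-0.28) and ADCY6 (-0.25), which make cyclic AMP, were slightly lower.

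On the contracting side, of 19 agonist and RhoA genes, 9 were higher and 4 lower in implantation A, with a median log2 fold change of 0.17. EDN1, the peptide endothelin, was higher (0.94) and ECE1, the enzyme that activates it, lower (-0.68). The kinases ROCK1 (0.95) and ROCK2 (0.68) and the myosin phosphatase subunits PPP1CB (0.91) and PPP1R12A (0.76) were higher. The receptor genes EDNRA, ADRA1A, ADRA1B, AGTR1 and TBXA2R did not pass. Pericyte markers were called in both directions, about as often as all tested genes (33.6% higher, 31.7% lower). Of 10 tested, out of 11, 4 were higher and 3 lower in implantation A, with a median log2 fold change of 0.11. RGS5 (1.31) and MCAM (0.84) were higher, while PDGFRB (-0.26), NOTCH3 (-0.27) and NDUFA4L2 (-1.0) were lower and CSPG4 did not pass.

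**Figure D2:**
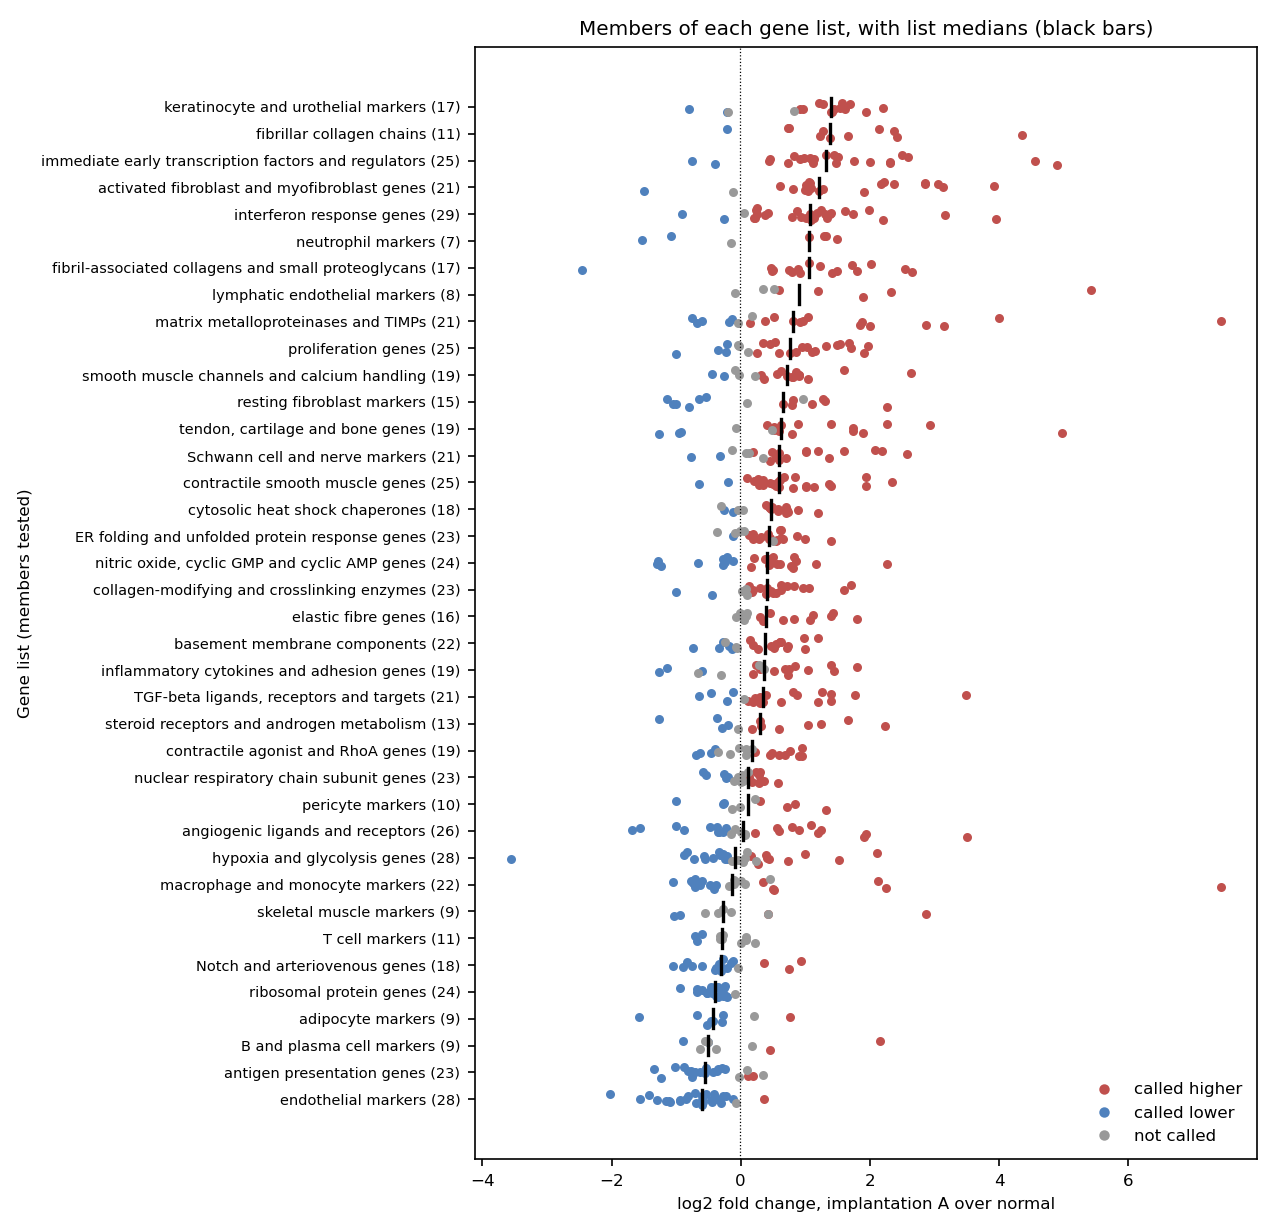
Log2 fold change of implantation A over normal for every tested member of the gene lists with at least 7 tested members, one dot a gene. Black bars mark the median of each list and the dotted line the median of all tested genes, -0.01. Fibrillar collagens have a median of 1.39 and endothelial markers one of -0.60.

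Endothelial transcripts were lower almost throughout. Of the 28 markers, 1 was higher and 26 lower in implantation A, with a median log2 fold change of -0.60, against a background of 31.7% of all genes called lower. Their summed level was 4393 to 4421 CPM in implantation A and 7702 to 7882 CPM in normal, and 7 members were at least 2-fold lower. ADGRL4 was the member called higher (0.35) and PALMD did not pass. CDH5, the cadherin of endothelial junctions (chromosome 6, 27108560 to 27142145), stood at 251, 249 and 262 CPM in implantation A and 433, 406 and 391 CPM in normal, a log2 fold change of -0.69 with an SE of 0.0454 (adjusted p = 2.94e-13). PECAM1, the adhesion molecule CD31 (chromosome 12, 14667643 to 14723296), stood at 468, 483 and 477 CPM in implantation A and 711, 731 and 715 CPM in normal, a log2 fold change of -0.59 with an SE of 0.0401 (adjusted p = 4.75e-13). VWF, the clotting factor carrier stored by endothelium (chromosome 5, 64516627 to 64655938), stood at 864, 835 and 853 CPM in implantation A and 1212, 1178 and 1086 CPM in normal, a log2 fold change of -0.45 with an SE of 0.0428 (adjusted p = 6.46e-10). For all 3 the libraries of the groups did not overlap, as for 33.6% of all tested genes on the lower side. With the length trend removed the counts stayed at 1 higher and 26 lower, with a median of -0.66.

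The endothelial genes did not fall by a common factor. CLDN5 (-2.03), the orphan receptor TIE1 (-1.55), EGFL7 (-1.41) and NOS3 (-1.30) differed most, and KDR (-0.23), TEK (-0.27) and ENG (-0.11) least among those called lower. Against CDH5 counts as a common yardstick, CLDN5 stood at 0.382 ± 0.011 in implantation A and 0.966 ± 0.0118 in normal (SD, n = 3, exact permutation p = 0.1). NOS3 over CDH5 was 0.524 ± 0.0121 in implantation A and 0.797 ± 0.00958 in normal (exact permutation p = 0.1). VWF over CDH5 went the other way, at 3.35 ± 0.1 in implantation A and 2.83 ± 0.068 in normal, as did KDR over CDH5, at 0.356 ± 0.0236 in implantation A and 0.259 ± 0.00825 in normal (exact permutation p = 0.1 for each). For PECAM1 the ratio was 1.88 ± 0.0614 in implantation A and 1.76 ± 0.102 in normal, and its libraries overlapped (exact permutation p = 0.2). In these 6 libraries CLDN5 and NOS3 were thus lower beyond the level of CDH5, and VWF and KDR less so. Over these 12 ratios the adjusted p cannot pass 0.05 with 3 libraries a group.

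**Figure D3:**
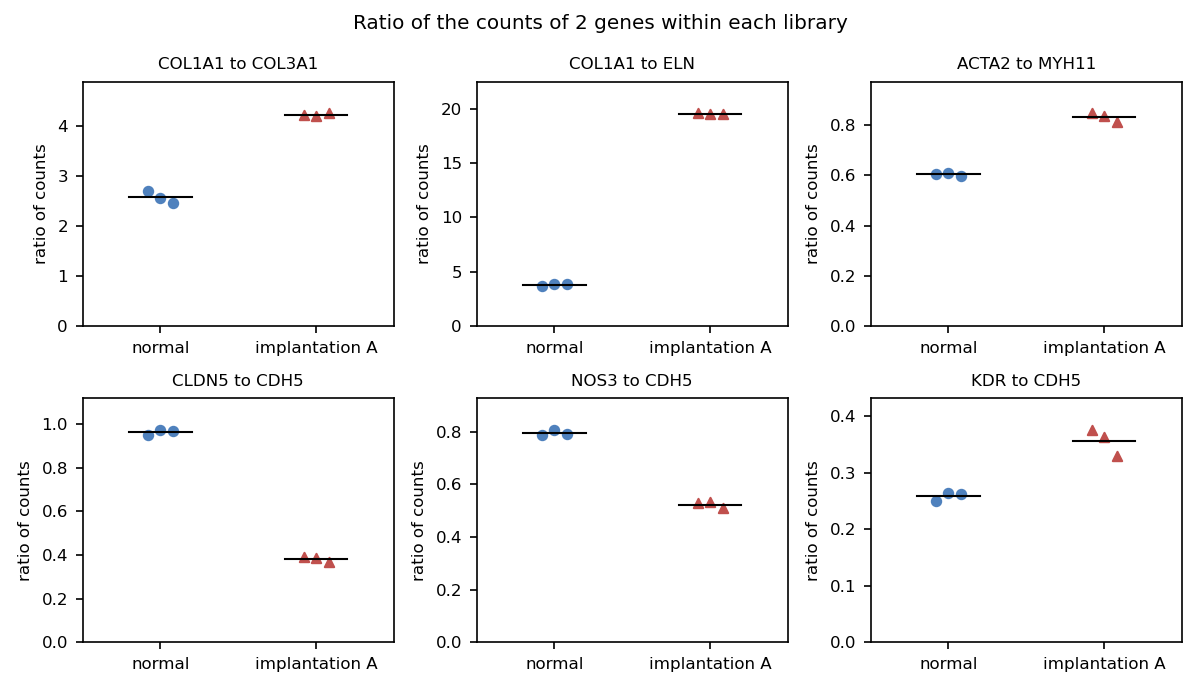
Ratios of counts between pairs of genes in each of the 6 libraries, with implantation A and normal as separate points. CLDN5 over CDH5 lies near 0.382 in implantation A and 0.966 in normal, and COL1A1 over COL3A1 near 4.23 and 2.58.

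Angiogenic ligands and receptors were mixed, as were all tested genes (33.6% called higher, 31.7% lower). Of 26 tested members, out of 27, 11 were higher and 10 lower in implantation A, with a median log2 fold change of 0.04. VEGFA, the main growth factor of vessels (chromosome 7, 38746393 to 38762282), stood at 120.3, 119 and 118 CPM in implantation A and 231, 224 and 206 CPM in normal, a log2 fold change of -0.88 with an SE of 0.0488 (adjusted p = 6.80e-15). Its receptor KDR was at 94.1, 90.2 and 86.5 CPM in implantation A and 108, 107 and 103 CPM in normal (-0.23), and the related ligand PGF was lower (-1.68), as was ANGPT4 (-1.01). APLN, apelin of sprouting tip cells, stood at 18.7, 21 and 23.8 CPM in implantation A and 1.53, 1.9 and 2.14 CPM in normal (3.51), and its receptor APLNR differed little (0.22). PDGFD (1.94), MET (1.91) with its ligand HGF (1.20), FGF2 (1.25) and CXCL12 (1.09) were higher.

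Notch signalling sets arterial identity in vessels. Of 18 Notch and arteriovenous genes, 3 were higher and 14 lower in implantation A, with a median log2 fold change of -0.31. The ligands JAG2 (-0.90) and DLL4 (-0.76), the target HEY1 (-1.04) and the arterial gap junction genes GJA5 (-0.82) and GJA4 (-0.60) were lower. NOTCH2 (0.75), HEY2 (0.93) and HES1 (0.36) were higher. NR2F2, a factor of venous identity, did not pass.

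Lymphatic endothelial markers went, where called, against the blood endothelial ones. Of 8 members, 5 were higher and 0 lower in implantation A, with a median log2 fold change of 0.90, and their summed level was 172 to 177 CPM in implantation A and 68.3 to 71.7 CPM in normal. CCL21, the chemokine that guides immune cells into lymphatics (chromosome 10, 32093783 to 32094482), stood at 49.7, 51 and 47.8 CPM in implantation A and 1.19, 1 and 1.26 CPM in normal, a log2 fold change of 5.42 with an SE of 0.176 (adjusted p = 5.33e-24). MMRN1 (2.33), RELN (1.90), PDPN (1.20) and PROX1 (0.59), the factor that defines lymphatic identity, were higher. Of the other members, LYVE1 and STAB2 averaged under 3 CPM and FLT4 was at 24.3, 25.5 and 23.5 against 26.5, 27.5 and 24.3 CPM, and none of them passed. PDPN and RELN are also expressed by stromal and nerve cells, and their part in the sum was not tested.

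Macrophage genes did not move together. Of 22 tested members, out of 24, 6 were higher and 10 lower in implantation A, with a median log2 fold change of -0.14, and their summed level was 769.5 to 779.5 CPM in implantation A and 881 to 892 CPM in normal. Beside MMP12, which is also in the metalloproteinase list, GPNMB, a glycoprotein of lipid-laden and scar macrophages (chromosome 9, 92037428 to 92071501), stood at 153, 158 and 155 CPM in implantation A and 30.3, 34.2 and 33.4 CPM in normal, a log2 fold change of 2.25 with an SE of 0.0565 (adjusted p = 1.76e-22). LYZ (2.13), CTSS (0.51) and CD86 (0.34) were higher too. The complement genes C1QA (-0.71), C1QB (-0.60) and C1QC (-0.78), CD163 (-0.74) and VSIG4 (-0.71), which mark tissue-resident macrophages, were lower. So were CD14 (-1.04) and the lineage receptor CSF1R (-0.48). CD68, a lysosomal marker of all macrophages, stood at 33, 28.6 and 35.8 CPM in implantation A and 37.4, 34.6 and 32.7 CPM in normal and did not pass (-0.10, adjusted p = 0.239), though it was called lower with upper-quartile scaling (-0.18, adjusted p = 0.0414) and with library size alone (-0.18, adjusted p = 0.0492).

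Lymphocyte markers were scarce in both groups. Of 11 tested T cell markers, out of 15, 0 were higher and 3 lower in implantation A, with a median log2 fold change of -0.28, and the CD3 chain genes CD3D, CD3E and CD3G averaged under 3 CPM and did not pass. CD8A (-0.70) and CD247 (-0.68) were lower. Among 9 tested B and plasma cell markers, out of 12, 2 were higher and 2 lower in implantation A, with a median log2 fold change of -0.50. JCHAIN, the joining chain of secreted antibodies, stood at 18.7, 17.7 and 19.1 CPM in implantation A and 3.29, 4.69 and 4.49 CPM in normal (2.15), while MZB1 was lower (-0.89). Of 4 tested mast cell markers, out of 9, KIT was higher (0.74) and MS4A2 (-1.0) and GATA2 (-0.85), which endothelium also expresses, were lower.

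Of 7 tested neutrophil markers, out of 13, 4 were higher and 2 lower in implantation A, with a median log2 fold change of 1.06. The calgranulins S100A8 (1.33), S100A9 (1.29) and S100A12 (1.06) were higher, with S100A9 at 478, 474 and 471 CPM in implantation A and 205, 193 and 186 CPM in normal. ELANE, neutrophil elastase (-1.52, mean 0.732 against 2.13 CPM), and PGLYRP1, a granule protein (-1.08, mean 4.41 against 9.36 CPM), were lower. Squamous epithelium also expresses calgranulins. The epithelial markers given below were higher in the same libraries, and their part in the calgranulin levels was not tested. The more specific neutrophil genes were scarce. CSF3R had a mean of 1.69 CPM in implantation A and 0.594 CPM in normal (1.49), CXCR2 did not pass, and MPO had 4 and 9 counts in all.

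Of 19 tested inflammatory cytokine and adhesion genes, out of 22, 12 were higher and 3 lower in implantation A, with a median log2 fold change of 0.36. CXCL10, an interferon-induced chemokine (1.81), CCL2 (1.39), the monocyte attractant, and the endothelial selectins SELE (1.44) and SELP (0.85) were higher. Their levels stayed low, with CXCL10 at 10.6, 12.4 and 11.3 CPM in implantation A and 2.72, 3.35 and 3.73 CPM in normal. CCL5 (-1.14), CSF3 (-1.26) and NFKBIA (-0.60), the inhibitor of NF-kappaB, were lower. IL6 had 31 counts in implantation A and 28 in normal, too few to be tested, and IL1B had 10 and 11. TNF did not pass.

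Interferon response genes were higher as a group while antigen presentation genes were lower. Of 29 tested interferon genes, out of 30, 26 were higher and 2 lower in implantation A, with a median log2 fold change of 1.08, and their summed level was 2153 to 2171 CPM in implantation A and 1226 to 1276 CPM in normal. IFI6 (chromosome 6, 84852782 to 84858072) stood at 263, 254 and 259.9 CPM in implantation A and 89.3, 85.5 and 79.1 CPM in normal, a log2 fold change of 1.61 with an SE of 0.0494 (adjusted p = 1.88e-20). MX1, a GTPase that blocks viruses (chromosome 13, 204843049 to 204868927), stood at 181, 180.3 and 186 CPM in implantation A and 69, 70.7 and 68.3 CPM in normal, a log2 fold change of 1.40 with an SE of 0.048 (adjusted p = 2.33e-19). OASL (3.95), ISG20 (3.16), DDX60 (2.20) and MX2 (1.99) had the largest differences of the list. The RNA sensor DDX58 was at 1.75, and the signalling factors STAT2 (0.26) and IRF7 (0.21) had smaller ones. GBP1 (-0.25) and GBP2 (-0.90), which respond to interferon gamma, were lower.

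In the antigen presentation list of 23 genes, 2 were higher and 18 lower in implantation A, with a median log2 fold change of -0.55, and the summed level was 3732 to 3749 CPM in implantation A and 5483 to 5543 CPM in normal. CD74, the chaperone of class II molecules (chromosome 2, 151402210 to 151409924), stood at 634, 607 and 627 CPM in implantation A and 1194, 1133 and 1110.1 CPM in normal, a log2 fold change of -0.88 with an SE of 0.0412 (adjusted p = 2.13e-16). CIITA, the master regulator of class II genes, was lower (-0.72). The class II chains SLA-DRB1 (-1.34), SLA-DQB1 (-0.63) and SLA-DRA (-0.43) and the class I chains SLA-1 (-0.55), SLA-2 (-1.01) and SLA-3 (-1.24) were lower. Reads can be shared among the near-identical SLA genes, which also vary between animals, so any single value is uncertain. B2M, the light chain of class I, was slightly higher (0.19), as was TAP1 (0.12), while SLA-DOB, TAPBP and NLRC5 did not pass.

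Immediate early genes, transcription factors induced within minutes by growth factors, injury or handling, were higher. Of 25 tested members, out of 26, 23 were higher and 2 lower in implantation A, with a median log2 fold change of 1.32, and their summed level was 2465 to 2480 CPM in implantation A and 1285 to 1412 CPM in normal. FOS, a subunit of the AP-1 factor (chromosome 7, 98449508 to 98451971), stood at 96.5, 91.2 and 87.7 CPM in implantation A and 3.74, 2.68 and 2.85 CPM in normal, a log2 fold change of 4.89 with an SE of 0.122 (adjusted p = 5.12e-25). FOSB (chromosome 6, 51836780 to 51844531) stood at 55.8, 57.6 and 54.7 CPM in implantation A and 2.66, 2.34 and 2.14 CPM in normal, a log2 fold change of 4.55 with an SE of 0.129 (adjusted p = 7.55e-24). EGR1 (2.31), ATF3 (2.59), NR4A3 (2.50), CYR61 (2.31), JUNB (1.50) and JUND (1.32) were higher with them. KLF2, a factor that blood flow induces in endothelium (-0.76), and BTG2 (-0.40) were lower.

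Of 18 tested heat shock chaperones, out of 19, 13 were higher and 2 lower in implantation A, with a median log2 fold change of 0.48. HSPH1 (1.20), HSPA8 (0.73) and HSPB6 (0.88), the last a small chaperone of smooth muscle, were higher, and HSPB1 (-0.26) and HSP90AB1 (-0.12) lower. Of 23 genes of protein folding in the endoplasmic reticulum, where procollagen is made, 17 were higher and 1 lower in implantation A, with a median log2 fold change of 0.44. SEC24D, a coat protein of procollagen transport (1.40), HSPA5 (0.88), the main chaperone of that compartment, and HSP90B1 (0.62) had the smallest p-values. ATF4 was slightly lower (-0.12), and the stress genes DDIT3 and TRIB3 did not pass.

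Genes of dividing cells were modestly higher in sum. Of 25 members, 18 were higher and 4 lower in implantation A, with a median log2 fold change of 0.76, with summed levels of 426 to 433 CPM in implantation A and 368 to 378 CPM in normal. MKI67, the Ki-67 antigen of cycling cells (chromosome 14, 137266622 to 137296312), stood at 45.5, 46.8 and 46.7 CPM in implantation A and 21.5, 20.9 and 20.1 CPM in normal, a log2 fold change of 1.15 with an SE of 0.0679 (adjusted p = 2.13e-14). TOP2A (1.91), CCNB1 (1.98), BUB1 (1.67) and CENPF (1.49), genes of mitosis, were higher, while AURKB (-1.0), PLK1 (-0.35), MCM7 (-0.22) and RRM1 (-0.23) were lower. MCM2, MCM5 and CCNA2 did not pass.

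Epithelial markers, which do not belong to the erectile compartment, were present in both groups and higher in implantation A. Of 17 tested keratinocyte and urothelial markers, out of 22, 13 were higher and 2 lower in implantation A, with a median log2 fold change of 1.40, and their summed level was 4521 to 4544 CPM in implantation A and 2096 to 2170 CPM in normal. KRT5, the keratin of basal squamous cells (chromosome 5, 17862047 to 17868397), stood at 1607, 1615 and 1606 CPM in implantation A and 729, 710.1 and 653 CPM in normal, a log2 fold change of 1.21 with an SE of 0.0423 (adjusted p = 4.37e-19). The junction genes CDH1 (1.94), DSP (1.40), DSG3 (1.69) and PERP (1.54) and the basal cell factor TP63 (2.21) were higher. The uroplakins UPK2 and UPK3A averaged under 1 CPM in both groups and did not pass. The part of these cells in other differences was not tested.

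Of the 10 largest rises chosen by the rule for named genes, DMBT1 and TCN1 are known from secretory or mucosal epithelium, and of the 10 largest falls, given below, DMKN and LCT are epithelial genes too. DMBT1, a mucosal defence glycoprotein (chromosome 14, 132154346 to 132231274), stood at 69.8, 72.5 and 68.7 CPM in implantation A and 2.1, 2.01 and 2.14 CPM in normal, a log2 fold change of 5.07 with an SE of 0.132 (adjusted p = 3.96e-25). TCN1, the vitamin B12 binding protein of secretions (chromosome 2, 11633377 to 11646261), stood at 17.3, 15 and 17.2 CPM in implantation A and 0.34, 0.0558 and 0.11 CPM in normal, a log2 fold change of 6.57 with an SE of 0.501 (adjusted p = 7.15e-19). Its normal level came from 6, 1 and 2 counts, and the pooled counts put implantation A 93.8-fold higher with a 95% exact interval of 49.2 to 206. MUC4, a membrane mucin (3.13, mean 229 against 26.2 CPM), and DUOX2, a hydrogen peroxide producing oxidase of mucosa (3.63, mean 40.1 against 3.24 CPM), were chosen after their values were seen.

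Of the other genes with the largest rises, chosen by rule among genes with a symbol, at a mean log2 CPM of 3 or more and with libraries that do not overlap, PAPPA2 cleaves binding proteins of insulin-like growth factors and DPEP1 is a membrane dipeptidase. PAPPA2 (chromosome 9, 118362663 to 118635972) stood at 115, 112 and 114 CPM in implantation A and 5.5, 5.41 and 4 CPM in normal, a log2 fold change of 4.52 with an SE of 0.1 (adjusted p = 2.15e-25). DPEP1 (chromosome 6, 361187 to 385757) stood at 40.9, 40.5 and 39.1 CPM in implantation A and 1.25, 1.4 and 1.53 CPM in normal, a log2 fold change of 4.84 with an SE of 0.163 (adjusted p = 6.56e-23). The 10 genes of that rule on the higher side also include MMP12, TCN1, CCL21, DMBT1, TNMD, FOS, FOSB and COL2A1, all described with their groups.

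The 10 largest falls by that rule were smaller than its 10 largest rises. Without the limits of the rule, 86 called genes were at least 8-fold higher and 24 at least 8-fold lower. Of the 10 falls, PDK4 alone reached that size. PDK4, which inhibits pyruvate dehydrogenase and turns cells from glucose to fat as fuel (chromosome 9, 75246956 to 75260134), stood at 8.98, 7.85 and 8.79 CPM in implantation A and 95.5, 98.6 and 109 CPM in normal, a log2 fold change of -3.56 with an SE of 0.084 (adjusted p = 5.89e-24), or 11.8-fold lower. GPIHBP1, which holds lipoprotein lipase on capillary endothelium (chromosome 4, 1253401 to 1256921), stood at 5.48, 4.71 and 4.72 CPM in implantation A and 25.8, 23.4 and 21.9 CPM in normal, a log2 fold change of -2.25 with an SE of 0.113 (adjusted p = 2.51e-16). GGT5, an enzyme that converts leukotriene C4 (chromosome 14, 49638184 to 49663007), was the most abundant of them, at 50.6, 49.4 and 50.5 CPM in implantation A and 227, 222 and 201 CPM in normal, a log2 fold change of -2.11 with an SE of 0.0539 (adjusted p = 3.23e-22). The other 7 were CBR2 (-2.39), a carbonyl reductase, DMKN (-2.23), dermokine of skin, CARMIL3 (-2.22), MAPK15 (-2.18), an atypical MAP kinase, GABRD (-2.17), a GABA receptor subunit, SCNN1D (-2.15), a sodium channel subunit, and LCT (-2.13), the lactase gene. Their means in implantation A ran from 3.12 CPM for CBR2 to 12.1 CPM for LCT. In none of the 10 did a library of implantation A reach the lowest normal library, as the rule required.

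A few genes were counted in a single group. With 0 counts in all 3 libraries of one group and at least 10 in each of the other, 3 genes were not detected in normal and 2 not in implantation A. OXGR1, a receptor for oxoglutarate (chromosome 11, 66289131 to 66295826), had 50 counts in implantation A and 0 in normal, at least 15.3-fold higher when 3 counts over the group are taken as the floor. The others were LOC entries. LOC110261685 had 1106 counts in normal and 0 in implantation A, at least 403-fold lower, and the remaining 3 had bounds of 19.8 to 24.7. Leaving out a library moved the number of such genes from 5 to as many as 13, reached without normal 2.

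Adipocyte markers were lower as well. Of 9 tested members, out of 12, 1 was higher and 7 lower in implantation A, with a median log2 fold change of -0.43, with summed levels of 165 to 169.7 CPM in implantation A and 225 to 227 CPM in normal. CIDEC (-1.57), LIPE (-0.67), LPL (-0.47) and CD36 (-0.43), genes of lipid storage and uptake, were lower and PLIN4 was higher (0.76). ADIPOQ had 33 counts in implantation A and 22 in normal, too few to be tested, and FABP4 did not pass. Skeletal muscle markers summed to 23.1 to 25.1 CPM in implantation A and 24.3 to 25.9 CPM in normal, of which TTN is the most abundant, and ACTA1 had 5 and 4 counts. Of 9 tested among 22, 2 were higher and 2 lower in implantation A, with a median log2 fold change of -0.28. Blood cells left little trace, with HBB at a mean of 4.15 CPM in implantation A and 0.634 CPM in normal (2.70), the only member called of 3 tested erythroid markers out of 8.

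Hypoxia and glycolysis genes were called in both directions, as were all tested genes (33.6% higher, 31.7% lower). Of 28 members, 9 were higher and 13 lower in implantation A, with a median log2 fold change of -0.09. HIF1A, the oxygen-regulated factor (chromosome 1, 190625436 to 190673926), stood at 155, 157 and 155 CPM in implantation A and 50.4, 52.2 and 60.1 CPM in normal, a log2 fold change of 1.52 with an SE of 0.057 (adjusted p = 1.53e-18). Of the known targets of hypoxia-inducible factors, HK2 (2.11), LDHA (0.74) and ADM (0.99) were higher, while VEGFA (-0.88), NDRG1 (-0.83), BNIP3 (-0.55) and EGLN3 (-0.27) were lower. CA9 and SLC2A1 did not pass.

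Ribosomal protein genes were lower in nearly every case. Of the 24 members, 0 were higher and 23 lower in implantation A, with a median log2 fold change of -0.40, and their summed level was 16260 to 16330 CPM in implantation A and 22530 to 22840 CPM in normal. RPS14 (chromosome 2, 151430047 to 151433951) stood at 706, 688 and 719.8 CPM in implantation A and 1430.2, 1340.1 and 1283 CPM in normal, a log2 fold change of -0.94 with an SE of 0.0429 (adjusted p = 1.19e-16), followed by RPL13 (-0.68) and RPL8 (-0.68). RPS4X did not pass. Of the 24 genes 23 lie in the 3 bins of shortest genes, whose medians were -0.12 to -0.06. With the length trend removed the list still had 0 higher and 23 lower, with a median of -0.38. Many ribosomal protein genes have processed copies in the genome that can share reads.

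The same genes can be set beside the other groups of the study, as levels scaled over all 15 libraries. These comparisons share the normal libraries, defect 1 and defect 2 held only 207769 and 250178 counts, and no test was made. COL1A1 stood at 8367, 8041 and 7666 CPM in normal, at 41960, 41970 and 42180 in implantation A, at 63280, 70220 and 79500 in defect, at 82170, 82280 and 84350 in implantation B and at 3997, 3988 and 4052 in ECs+ implantation. Implantation A lay between normal and the defect and implantation B groups. ACTA2 was highest in implantation A, at 1589, 1589 and 1561 CPM, against 728, 721 and 690.5 in normal, 558, 533 and 701 in defect, 748, 730.5 and 764 in implantation B and 934, 919 and 998 in ECs+ implantation.

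CLDN5 stood at 378, 365 and 352 CPM in normal and 358, 343 and 360.2 in ECs+ implantation, whose ranges overlapped. It was at 91.1, 89.1 and 90.1 in implantation A, 74.8, 72 and 73.2 in implantation B and 134, 122 and 143 in defect. MMP12 was at 26.2, 25.1 and 24.3 CPM in implantation A, 59.9, 54.3 and 57.9 in implantation B, 13.8, 11.8 and 15.3 in defect and 0.767, 0.826 and 0.839 in ECs+ implantation. FOS differed widely between the implant groups, with 89.7, 84.9 and 81.4 CPM in implantation A, 2431, 2441 and 2448 in implantation B and 776, 726 and 786 in ECs+ implantation, against 3.43, 2.47 and 2.65 in normal. PDK4 was at 87.6, 91 and 101 CPM in normal and 62.2, 57.8 and 60.8 in ECs+ implantation, at 8.35, 7.3 and 8.16 in implantation A, at 8.35, 8.49 and 9.07 in implantation B and at 0, 11.8 and 4.72 in defect. KRT5, the epithelial keratin, was at 669, 655 and 607 CPM in normal, 2057, 1987 and 2476 in defect, 1495, 1502 and 1492 in implantation A, 1635, 1670 and 1680 in implantation B and 0, 0.22 and 0 in ECs+ implantation. The groups thus differed in this keratin too, and the part of epithelium in the other levels was not tested.

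**Figure D4:**
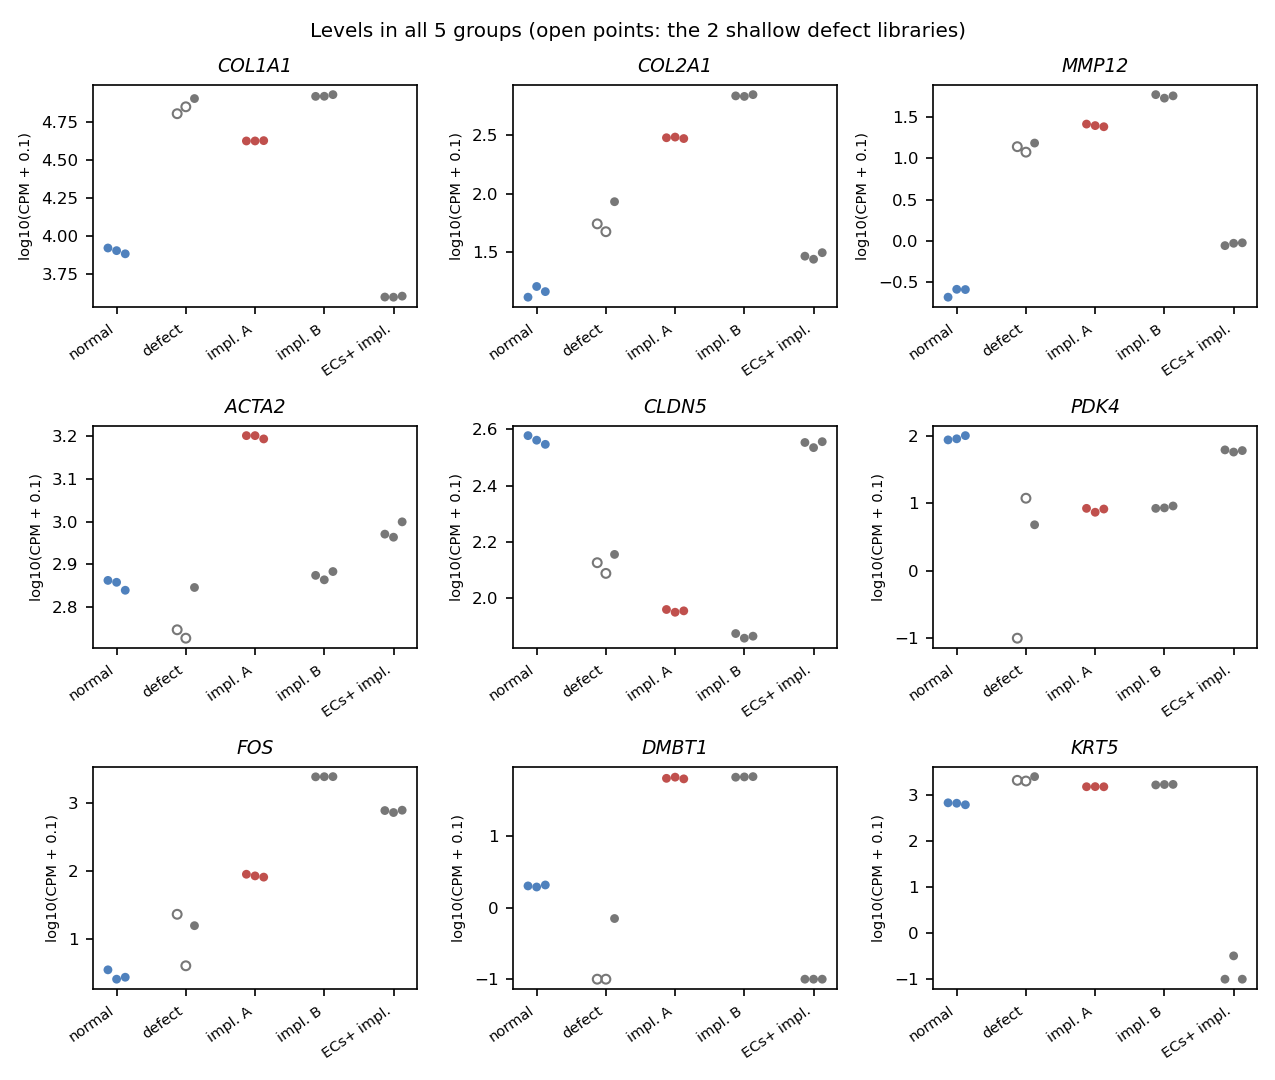
Levels of 9 genes in all 15 libraries by group, as log10 of CPM plus 0.1 with TMM factors of all libraries, where open points mark the 2 shallow defect libraries. COL1A1 in implantation A lies between normal and implantation B, and ACTA2 is highest in implantation A.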

How the data were processed

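RNA of 15 pig corpus cavernosum samples was sequenced, and 3 implantation A and 3 normal libraries were compared. The deposited tables hold raw counts and TPM values, scaled by length and depth, of the same 26654 genes. Among the tools in the submitters' processing notes are HTSeq, HISAT2, fastp and DESeq2, without versions, and the build is Sscrofa11.1. Neither the making of the TPM values nor the use of strand in counting is stated there, so reads of a gene and of its antisense or overlapping partner cannot be separated.

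The counts were analysed with edgeR 4.0.16 in R 4.3.3: filterByExpr, TMM factors, glmQLFit (robust) and glmQLFTest with group as the only term, two-sided, at an adjusted p of 0.05. The shallow defect libraries stayed out of this fit. Columns were matched to samples by title, and 99.9% of the tested symbols were found in a RefSeq gene table, the source of coordinates. Length bins used the ratio of CPM to TPM and genes with a mean log2 CPM of at least 2. All replicate pairs differed by more than sampling noise (chi-square per degree of freedom 1.57 to 5.81). The libraries were counted as separate samples, as labelled. That excess cannot tell separate animals from repeat libraries of the same animal. A floor of 3 counts is 0.153 to 0.173 CPM, and floors and intervals cover counting error only. On simulated counts of 17527 genes, 46% of genes changed 1.25-fold, 82% changed 1.5-fold and 100% changed 4-fold were recovered, and 5.95% of calls were false. The simulation gave every gene the same spread and changed few genes, unlike these data. It checks the code, and its share of false calls does not carry over to the calls reported above.

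The comparison, the 40 gene lists and the genes named whatever their result were chosen with earlier results of these data known. Lists were described by counts and medians, with no set test. Also named were the 10 largest rises and 10 largest falls among called genes with a symbol that is no LOC entry, at a mean log2 CPM of 3 or more and with libraries that do not overlap, and up to 3 members of each list with the smallest p. Other members are named to account for their list. Some genes these rules select are not reported here. The promoter search for CArG and AP-1 motifs was not run, because no promoter sequences were used here. Alternatives were DESeq2 1.42.0, limma 3.58.1 on counts (voom) and on log2 TPM, other scalings and filters, fits of 9 and 15 libraries, a replicate block, a threshold of 0.01, leaving out each library and, added after seeing the data, removal of the length trend.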

Additional observations from a re-analysis of the deposited data

How the results depend on the processing

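The number of genes called, 11573 in the main analysis, ran from 9967 at a threshold of 0.01 to 12628 with limma-voom, with 10573 by DESeq2. The number at least 2-fold different, 2307, was 1305 on log2(TPM + 1) with limma and 1308 there without a filter. Without 1 library in turn, 10733 to 11949 genes were called, and the number of genes with 0 counts in one group, 5, ran from 5 to 13 (8 without implantation A 2, 13 without normal 2 and 9 without normal 3). The cause of these shifts was not tested. Of 40 gene lists 29 had more members higher than lower, and 26 to 30 under the alternatives. Most of the 148 named genes were picked by small p or large difference in these same libraries, so few changes were likely from the start. Over these genes and 21 alternatives, 3064 results kept direction and side of the threshold, 22 lost the call, 8 gained it and 7 turned direction. The 7 were all ELN, never called in the main analysis: -0.067 with upper-quartile scaling, -0.064 with library size alone, -0.002 with a filter of 1 CPM in 3 libraries, -0.004 and -0.002 in the fits of 9 and of 15 libraries, -0.06 with the length trend removed, and -0.029 to 0.062 when a library was left out (lowest without normal 3, highest without normal 1); the cause was not tested. No scaling moved the median of all genes by over 0.1 (the TPM values moved it by 0.0903 to 0.0924). The split of calls by direction did depend on the scaling. With upper-quartile factors 5202 genes were higher and 6545 lower, and with library size alone 5165 and 6484. With the length trend removed they were 5226 and 6412, and in the fit of 9 libraries 5755 and 5767. On log2(TPM + 1) 6434 were higher and 4132 lower.

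Replicates share numbers between the groups, and deviations of same-numbered libraries correlated at -0.00356, 0.0117 and -0.0311. With 3 libraries a group, and no animal given in the labels, such values cannot settle whether the numbers pair the samples. A fit with the replicate number as a block called 11498 genes, 5929 higher and 5569 lower.

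Depth limits little at these totals, except for genes with a few counts in a group such as MMP12, TCN1 and OXGR1. IL6 and IL1B were too low to be tested. With 3 libraries a group, the exact permutation test of a single ratio cannot go below 0.1, and outliers within a group were not tested.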

Other observations

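Schwann cell and nerve transcripts were mostly higher in implantation A. Of 21 tested markers, out of 23, 15 were higher and 2 lower in implantation A, with a median log2 fold change of 0.59. NGFR, the low-affinity neurotrophin receptor of immature and denervated Schwann cells (chromosome 12, 25699410 to 25720355), stood at 127, 124 and 133 CPM in implantation A and 28.2, 29.5 and 26.1 CPM in normal, a log2 fold change of 2.20 with an SE of 0.0599 (adjusted p = 9.97e-22). ERBB3 (1.37), the neuregulin receptor, was higher, as were CDH19 (2.09) and SOX10 (0.54), which mark the Schwann lineage. The epithelial markers given above were higher in the same libraries, and their part in the levels of NGFR and ERBB3 was not tested. NEFL, a neurofilament, stood at 37.7, 38.9 and 37.2 CPM in implantation A and 5.16, 7.48 and 6.52 CPM in normal (2.57). S100B (-0.32) and PRPH (-0.77) were lower, MBP, GFAP, MAL and STMN2 did not pass, and TH, of noradrenergic nerves, had 0 counts in all 6 libraries.

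Genes of androgen and steroid action also differed. Of 13 tested members, out of 16, 8 were higher and 4 lower in implantation A, with a median log2 fold change of 0.30. SRD5A2, which turns testosterone into dihydrotestosterone (chromosome 3, 107840200 to 107918351), stood at 136, 133 and 132 CPM in implantation A and 25.4, 28.7 and 30.6 CPM in normal, a log2 fold change of 2.24 with an SE of 0.0617 (adjusted p = 1.22e-21). The largest fall of the list was that of ESR2, an oestrogen receptor (-1.27, mean 1.18 against 2.86 CPM). HSD11B1 (1.65), which regenerates glucocorticoid, and the glucocorticoid receptor NR3C1 (0.60) were higher, while TSC22D3 (-0.28), PER1 (-0.37) and ZBTB16 (-0.20), known glucocorticoid-induced genes, were lower and FKBP5, another, was slightly higher (0.17). Nuclear respiratory chain genes differed little. Of 23 tested members, out of 29, 11 were higher and 5 lower in implantation A, with a median log2 fold change of 0.11, and the differences ran from -0.58 (NDUFV1) to 0.58 (UQCRB).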
